A study of Mus musculus with 4 samples.

Results

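The genes that encode WNT ligands, their receptors, their secreted antagonists and the proteins that carry the signal to the nucleus were described in mouse bone marrow stromal cells (mBMSCs), the adherent marrow fraction that can give rise to osteoblasts and adipocytes. The members were chosen by symbol, as protein-coding genes named Wnt, Fzd, Sfrp, Dkk or Rspo followed by a digit, together with a fixed list of single genes such as Lrp5, Axin2 and Ctnnb1. This rule used no measured value, and it found 63 genes of the 47069 identifiers in the expression table. RNA was sequenced from passage P1 mBMSCs of wild type C57BL/6J mice of 8 weeks. At confluence, one group was treated for 3 d with GA (ginkgolic acid, 50 μM), a sumoylation inhibitor, plus DEX (dexamethasone, 1 μM), and the control group received DMSO plus DEX, so that both groups carried DEX and they differed in GA. Each group had 2 libraries, and neither the labels nor the methods state whether these came from separate mice or cultures, so the p-values describe the scatter between libraries, which may be technical. The cells were purified by adherence alone.

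WNT proteins bind a Frizzled receptor together with the co-receptor LRP5 or LRP6, which stops the destruction of β-catenin and lets it act with TCF/LEF factors on target genes. Other WNTs act through Frizzled or ROR receptors without β-catenin. Secreted antagonists hold back the ligand or the co-receptor, and R-spondins strengthen the signal by taking the ubiquitin ligases ZNRF3 and RNF43 off the membrane through LGR receptors. In marrow stroma of the mouse, β-catenin signaling is known to favour the osteoblast over the adipocyte.

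Expression was given as FPKM, fragments scaled to gene length and to the mapped reads of the library. Levels can be compared between genes only as far as the gene lengths used were right, and these were not given. The values rested on 21559951 to 31069538 reads per library, so that 21.6 to 31.1 reads in a 1 kb gene gave an FPKM of 1. Of the 63 members, 39 reached a mean FPKM of 1 over the 4 libraries and were tested, 16 lay above 0 but below that minimum, and 8 were listed at 0 in every library. Changes are differences in log2(FPKM + 1), GA plus DEX minus DMSO plus DEX, which understate the change of low genes. A gene was called at an adjusted p under 0.05 (limma, Benjamini-Hochberg over 12174 genes), and folds are ratios of mean FPKM.

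GA plus DEX changed most of the expressed WNT genes, in both directions. Among the 39 tested, 15 were called higher (38.5%), where 46.3% of all genes tested were called higher. Another 16 were called lower (41%), where 11.9% of all genes were. The remaining 8 were not called. The class and marker counts below are set against these same shares of all genes. The median change of the members was -0.02, against 0.19 over all genes tested. Because rises made up 79.5% of all calls and the median gene itself had moved, each library was also shifted to a common median, which lowered every change by about the same amount and brought the median of all genes to -0.04. On that scale 13 members were called higher (33.3%) beside 19.5% of all genes, and 20 lower (51.3%) beside 27.9%, with a member median of -0.25. Sfrp5 and Rspo3 reached the minimum only through the GA libraries and so had to differ; among the 37 members whose DMSO mean was also at least 1, 13 were called higher and 16 lower. A change of more than 0.5 in either direction was seen for 20 of the 39 (51.3%), and for 2645 of all 12174 genes (21.7%).

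**Figure D1:**
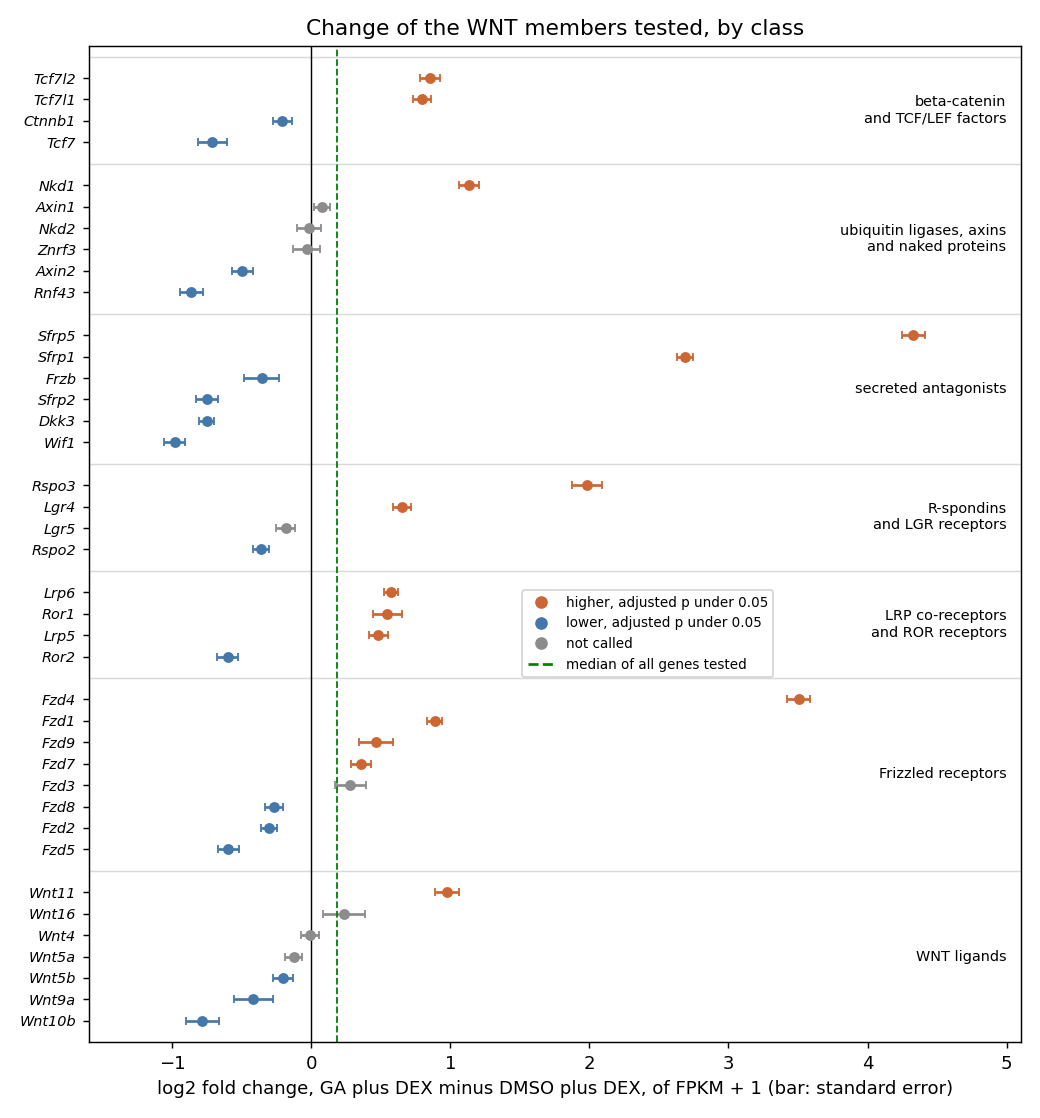
Difference in log2(FPKM + 1), GA plus DEX minus DMSO plus DEX, of the 39 members tested, by class, with the standard error as bars and colour for the call at an adjusted p under 0.05. Sfrp5, Fzd4 and Sfrp1 stand far to the right, while Wif1, Rnf43 and Wnt10b lie farthest to the left. The dashed line is the median of all genes tested, 0.19.

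Markers of several cell types differed between the same libraries. As deposited, 46.3% of all genes tested were called higher and 11.9% lower. All 5 adipocyte markers (Adipoq, Plin1, Cidec, Fabp4, Lipe) rose, from a summed FPKM of 15.4 to 15.5 in the DMSO libraries to 3979 to 4631 in the GA libraries. All 6 osteoblast markers fell, with sums of 65664 to 68953 and 30408 to 34815. Among stromal markers Cxcl12, Lepr and Pdgfra rose, Pdgfrb fell and Thy1 was below the minimum (summed FPKM 335 to 344 and 1073 to 1074, Pdgfra not called after the shift). Of 7 osteoclast markers 6 were tested and called higher (286 to 300.2 and 859.6 to 919.9), and all 6 macrophage markers rose (2142 to 2402 and 2695 to 3191), of which 5 stayed higher after the shift to a common median. Endothelial sums were 1.52 to 1.60 and 3.57 to 5.46, and of the 4 markers Pecam1 and Cdh5 reached the minimum. Of the chondrocyte markers, Col2a1 fell, Sox9 was not called and Acan was below the minimum (183 to 225 and 104 to 114). Plin1, Cidec, Oscar, Calcr, Dcstamp, Pecam1 and Cdh5 reached the minimum only through the GA libraries and so had to differ. No marker was at 0 in all libraries, and the part of these cell types in the WNT results below was not tested. In bulk RNA, fewer cells of a type and less RNA per cell cannot be told apart.

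Among the 19 WNT ligands, 7 were expressed above the minimum, 1 rose, 3 fell and 3 were not called. Wnt5a, which in mouse mesenchyme acts mostly without β-catenin, was the most abundant, at FPKM 26.3 and 28.7 in the DMSO libraries and 24.8 and 25.4 in the GA libraries. The groups did not overlap, but the change of -0.13 was not called as deposited (adjusted p = 0.119). Wnt5a was called lower after the shift to a common median (adjusted p = 0.00177). The same call came with quantile normalization (adjusted p = 0.00322) and with voom on reads recovered from the FPKM values (adjusted p = 4.49e-04). Its share of the summed ligand FPKM was 44.8% and 44.6%. Wnt10b, a ligand known in mice to promote bone and to hold back adipocytes, was the second in the DMSO libraries and showed the largest fall of the class. It stood at 11.3 and 12.1 in DMSO and at 5.46 and 7.38 in GA, 1.82-fold lower (log2 change -0.79, SE 0.12, adjusted p = 0.00114). Both GA values lay well below both DMSO values, and its share of the ligand FPKM went from 19.1% to 11.3%.

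Wnt11, another ligand known for signaling without β-catenin, was the one ligand that rose. Its FPKM was 2.19 and 2.39 in DMSO and 5.44 and 5.48 in GA, 2.39-fold higher (log2 change 0.98, SE 0.08, adjusted p = 6.83e-05), and each pair of libraries was tight. Wnt9a was lower, at 1.92 and 1.71 against 0.894 and 1.35 (log2 change -0.42, adjusted p = 0.0331). That call was lost without DMSO library 1 (adjusted p = 0.124) or without GA library 1 (adjusted p = 0.155). Wnt5b, the close relative of Wnt5a, was 1.18-fold lower, at 6.19 and 5.93 against 5.07 and 5.20 (log2 change -0.20, adjusted p = 0.0461), and leaving out any 1 library ended its call (adjusted p 0.0895 to 0.194). Wnt4 was nearly level as deposited, at 9.59 and 9.86 in DMSO and 9.36 and 9.94 in GA (adjusted p = 0.891), and was called lower after the shift (adjusted p = 0.0179). Wnt16, whose loss thins cortical bone in mice, had overlapping values of 1.81 and 1.20 in DMSO and 1.67 and 2.2 in GA (adjusted p = 0.222).

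Below the minimum, Wnt2b was at 0.390 and 0.504 in DMSO and 0.642 and 0.843 in GA, Wnt6 at 0.151 and 0.156 against 0.372 and 0.380, and Wnt7b at 0.0940 and 0.136 against 0.122 and 0.285. With no minimum on FPKM, of these 3 ligands only Wnt6 was called, higher (adjusted p = 0.0223). Wnt7a, Wnt8b and Wnt10a had a mean FPKM under 0.1, and the ligands listed at 0 were Wnt1, Wnt2, Wnt3, Wnt3a, Wnt8a and Wnt9b. At these depths 3 reads in a gene of 1 kb correspond to an FPKM of 0.0966 to 0.139, and less in a longer gene, so values this low rest on few reads.

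**Figure D2:**
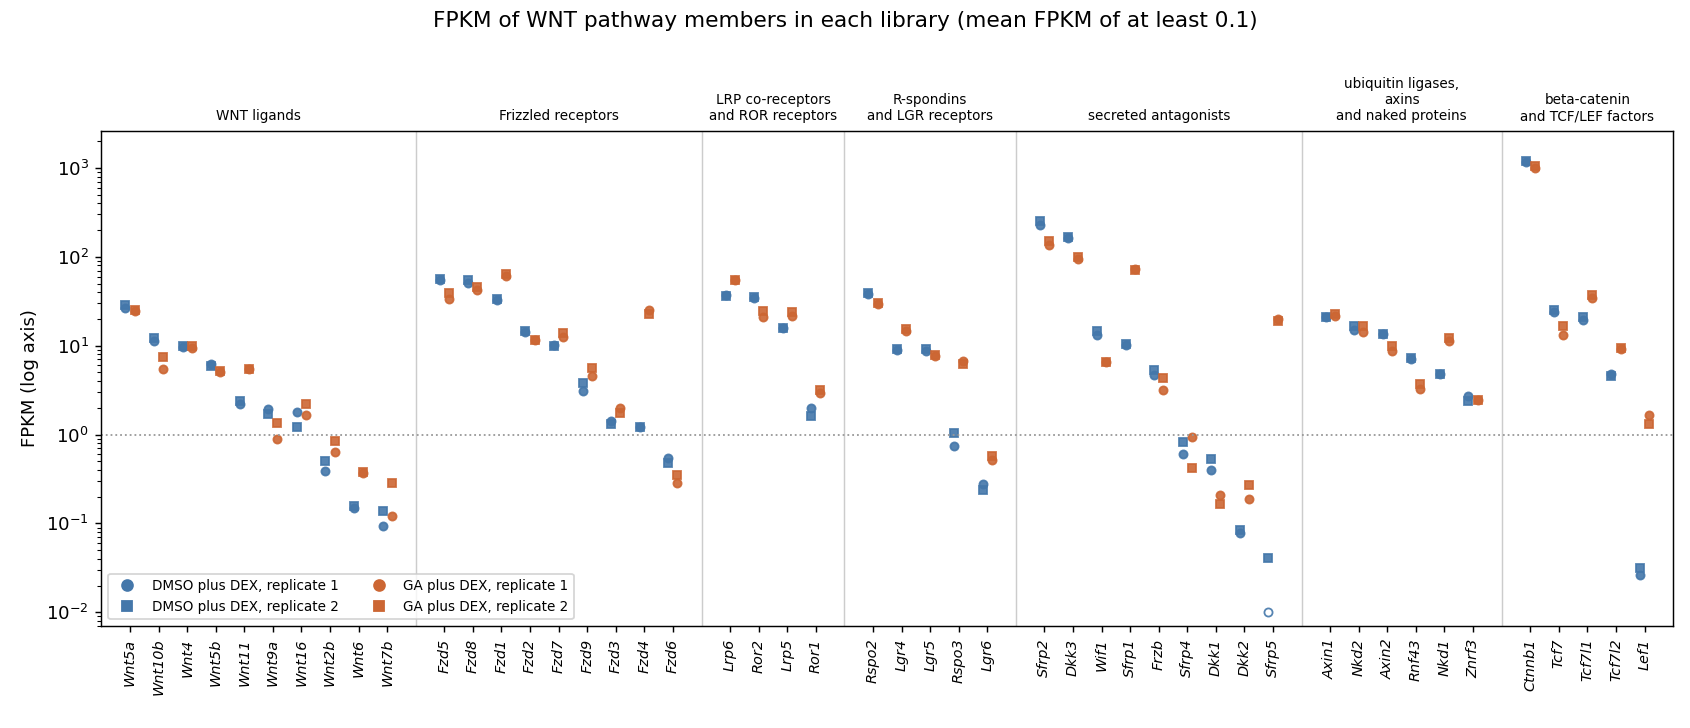
FPKM on a log axis of the members with a mean above 0.1, for each of the 2 DMSO plus DEX and 2 GA plus DEX libraries, by class. The open point marks the DMSO library in which Sfrp5 was at 0, drawn at 0.01, and the dotted line is the minimum mean FPKM of 1. Library pairs of one group lie close together beside the separation of Fzd4, Sfrp1, Sfrp5, Rspo3 and Lef1.

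Because TCF/LEF factors bind a short motif, the promoters of the members were searched for it in RefSeq windows on GRCm38.p6, from 250 bases before to 50 after a gene's start. The letters CTTTGAT or their reverse complement ATCAAAG were found in 2 of 53 windows of the 43 members matched (3.77%) and in 1225 of 32851 windows of all genes (3.73%). The RUNX letters TGTGGTT were in 0 of 53 windows (5.27% of all), and the C/EBP letters TTGCGCAA in 0 of 53 (0.183% of all), each read on both strands, with no overlap between the sites found. Both TCF/LEF matches lay before a ligand gene, 1 that rose and 1 that fell. They are shown with the match in capitals, and the Sfrp5 window, which held none of the motifs, is shown because Sfrp5 had the largest change of any member. Wnt11 is drawn from the forward strand (chr7:98834862-98835161, 1 of 2 windows), Wnt5b from the reverse strand (chr6:119449337-119449636, 1 of 3 windows) and Sfrp5 from the reverse strand (chr19:42202203-42202502, 1 window). Wnt11 and Sfrp5 were chosen after their values were seen.
Wnt11: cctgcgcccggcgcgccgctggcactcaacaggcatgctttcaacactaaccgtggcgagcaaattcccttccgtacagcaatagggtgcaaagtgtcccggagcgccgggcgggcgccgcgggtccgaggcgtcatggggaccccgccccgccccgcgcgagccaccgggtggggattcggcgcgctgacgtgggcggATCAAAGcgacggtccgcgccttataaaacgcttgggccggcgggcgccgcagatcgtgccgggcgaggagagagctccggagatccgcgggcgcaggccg
Wnt5b: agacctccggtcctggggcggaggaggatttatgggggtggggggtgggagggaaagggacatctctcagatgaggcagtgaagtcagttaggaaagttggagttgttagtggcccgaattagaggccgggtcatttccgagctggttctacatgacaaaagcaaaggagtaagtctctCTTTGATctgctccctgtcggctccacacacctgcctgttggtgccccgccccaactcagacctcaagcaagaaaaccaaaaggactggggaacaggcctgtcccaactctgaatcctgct
Sfrp5: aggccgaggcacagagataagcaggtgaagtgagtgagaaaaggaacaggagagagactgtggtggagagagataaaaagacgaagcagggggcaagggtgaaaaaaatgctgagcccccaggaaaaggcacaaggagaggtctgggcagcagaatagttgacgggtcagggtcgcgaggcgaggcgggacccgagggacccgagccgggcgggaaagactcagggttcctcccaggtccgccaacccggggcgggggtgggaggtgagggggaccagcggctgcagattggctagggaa

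Frizzled receptors, the membrane proteins that bind WNT directly, were rearranged in their order of abundance. Of the 10 genes, 8 were tested, 4 rose and 3 fell, beside 46.3% and 11.9% of all genes, and Fzd3 was not called. Fzd4, which also serves as the receptor of norrin, rose the most. Its FPKM was 1.21 and 1.20 in DMSO, from 138 and 114 reads, and 25.5 and 22.6 in GA, from 2023 and 2054 reads. This was 20.0-fold higher (log2 change 3.50, SE 0.08, adjusted p = 8.07e-08). Fzd1 followed, at 32.8 and 33.9 against 60.9 and 64.2, 1.87-fold higher (log2 change 0.89, SE 0.06, adjusted p = 1.35e-05). In both genes the GA libraries were far above the DMSO libraries, and both calls held under every alternative run.

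Fzd5 had the highest mean FPKM of the Frizzled genes in the control cells, where its values overlapped those of Fzd8. It fell 1.52-fold, from 55.2 and 55.9 to 33.7 and 39.3 (log2 change -0.60, SE 0.08, adjusted p = 4.83e-04). Fzd2 fell 1.26-fold, from 14.4 and 14.7 to 11.5 and 11.7 (log2 change -0.31, adjusted p = 0.00363). Fzd8 was 1.21-fold lower, at 50.7 and 55.3 against 42.5 and 45.1 (adjusted p = 0.0092), a call that was lost without DMSO library 2 (adjusted p = 0.0643). For these 3 receptors the groups did not overlap, but how many of all genes show this was not counted. Fzd7 was 1.31-fold higher, at 10.2 and 9.91 against 12.5 and 13.9 (adjusted p = 0.00426), and Fzd9 1.49-fold, at 3.06 and 3.82 against 4.57 and 5.67 (adjusted p = 0.0134). Neither was called after the shift to a common median (adjusted p = 0.201 and 0.143), and Fzd9 was not called without DMSO library 1 (adjusted p = 0.0565) or GA library 2 (adjusted p = 0.0597). Fzd3 stood at 1.43 and 1.31 against 2.00 and 1.75 (adjusted p = 0.0615), Fzd6 below the minimum at 0.544 and 0.477 against 0.284 and 0.349, and Fzd10 was listed at 0.

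As shares of the summed Frizzled FPKM, Fzd5 went from 32.1% to 18.3% and Fzd8 from 30.6% to 22.0%, while Fzd1 went from 19.3% to 31.4% and Fzd4 from 0.696% to 12.1%. Fzd1 ranked 3 by mean FPKM in the DMSO libraries and 1 in the GA libraries, and Fzd4 moved from rank 8 to rank 4 of the 9 Frizzled genes above 0. The neighbours Fzd5 and Fzd8 overlapped in DMSO. In GA they did not overlap, and Fzd4 lay below both.

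The co-receptors and ROR receptors were all 4 tested and all called, where 58.3% of all genes tested were called. Lrp6 was at 37.0 and 35.8 in DMSO and 54.7 and 54.6 in GA, 1.5-fold higher (log2 change 0.57, SE 0.05, adjusted p = 9.52e-05). Lrp5, in which loss or gain of function is known to lower or raise bone mass, was at 15.8 and 16 against 21.3 and 23.8, 1.42-fold higher (log2 change 0.48, SE 0.07, adjusted p = 8.33e-04). Both co-receptors of the β-catenin pathway therefore rose. Their groups did not overlap, which was not counted over all genes. The ROR tyrosine kinases, receptors for WNT5A, went in opposite directions. Ror2 fell 1.54-fold, from 34.3 and 35.2 to 21 and 24.3 (log2 change -0.60, SE 0.08, adjusted p = 4.40e-04). Ror1, the scarcer of the pair, rose 1.71-fold, from 1.97 and 1.63 to 2.97 and 3.20 (log2 change 0.55, SE 0.11, adjusted p = 0.00353), and its call was lost with quantile normalization (adjusted p = 0.0713). Lrp6 made up 41% of the FPKM of these 4 genes in DMSO and 53.1% in GA, and Ror2 39.1% and 22.0%.

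R-spondins and their LGR receptors had 7 members, of which 4 were tested, 2 rose, 1 fell and Lgr5 was not called. Rspo3 was near 1 FPKM in the control cells, at 0.753 and 1.04, and stood at 6.68 and 6.25 with GA. This was 7.21-fold higher (log2 change 1.98, SE 0.11, adjusted p = 6.11e-06). Rspo3 reached the minimum only through the GA libraries and so had to differ, and its call adds no support. Rspo2, the main R-spondin of these cultures, went the other way, from 37.8 and 38.7 to 29.1 and 30.0, 1.29-fold lower (log2 change -0.36, SE 0.05, adjusted p = 0.00105). Rspo2 thus remained above Rspo3 in every library. Lgr4 was at 9.02 and 9.24 against 14.5 and 15.3, 1.63-fold higher (log2 change 0.65, SE 0.06, adjusted p = 1.20e-04). Lgr5, a stem cell marker in several epithelia, was at 8.63 and 9.23 against 7.67 and 7.82 (adjusted p = 0.0522), and was called lower after the shift to a common median (adjusted p = 0.00158). Lgr4 and Lgr5 were near each other in DMSO, and Lgr4 was the higher of the pair in both GA libraries. Lgr6 stayed below the minimum, at 0.274 and 0.237 against 0.522 and 0.569 (adjusted p = 0.0268 with no minimum), and Rspo1 and Rspo4 had a mean under 0.1. Rspo2 made up 66.5% of the class in DMSO and 49.9% in GA, Rspo3 1.55% and 10.9%, and Lgr4 15.9% and 25.1%.

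Secreted antagonists held 2 of the 3 largest changes in log2(FPKM + 1) among the members tested. By fold of mean FPKM, Lef1, Fzd4 and Rspo3 also stood above Sfrp1. Of 12 genes, 6 were tested and all 6 were called, where 58.3% of all genes tested were. Of these, 2 were higher and 4 lower, beside 46.3% and 11.9% of all genes. Sfrp5, 1 of the 2, reached the minimum only through the GA libraries. Sfrp5, a decoy receptor for WNT known as a product of adipose tissue in mice, was at 0 and 0.0409 in DMSO, 0 and 2 reads, and at 19.9 and 19.2 in GA, 815 and 896 reads. Scaled to depth, the pooled reads gave a ratio of 1052 with a 95% counting interval of 291 to 8695, which covers counting error only. The fitted log2 change of 4.33 (SE 0.08, adjusted p = 3.60e-08) depends on the added 1. Sfrp1, of the same family, was already present at 10.1 and 10.4 and stood at 72.1 and 70.3 with GA, 6.97-fold higher (log2 change 2.69, SE 0.05, adjusted p = 4.91e-08). For Sfrp1 the rise was far outside the spread of the libraries, and the call held under every alternative run. Sfrp5 was also called in every run. As it passed the minimum through its GA values and so had to differ, this adds no support.

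Sfrp2, the most abundant antagonist, fell 1.68-fold, from 228 and 252 to 134 and 151 (log2 change -0.75, SE 0.08, adjusted p = 1.65e-04). Dkk3, a divergent member of the Dickkopf family, fell 1.69-fold, from 165 in both DMSO libraries to 94.7 and 100.3 (log2 change -0.75, SE 0.06, adjusted p = 2.93e-05). Wif1, which binds WNT proteins outside the cell and is expressed by osteoblasts in mice, fell 2.13-fold, from 13.2 and 14.8 to 6.62 and 6.49 (log2 change -0.98, SE 0.07, adjusted p = 3.35e-05). In all 3 the GA libraries lay below the DMSO libraries with no overlap, a separation that was not counted over all genes. Frzb (also called Sfrp3) was lower at 4.74 and 5.39 against 3.19 and 4.33 (log2 change -0.36, adjusted p = 0.0412), and the call was lost without DMSO library 2 (adjusted p = 0.142) or GA library 1 (adjusted p = 0.192).

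The Sfrp family therefore split, with Sfrp1 and Sfrp5 up and Sfrp2 and Frzb down, and these directions held after the shift to a common median. As deposited, FPKM summed over the Sfrp genes and Frzb was 244 and 268 in DMSO and 230.2 and 245 in GA, which overlapped. This sum was not scaled to a common median, a step that lowered the GA to DMSO ratio of every class sum. Of the summed antagonist FPKM, Sfrp2 went from 55.1% to 41.6%, Dkk3 from 37.9% to 28.5%, Sfrp1 from 2.35% to 20.8% and Sfrp5 from 0.00456% to 5.72%. Dkk1, the LRP5/6 inhibitor that blocks the co-receptor, was scarce, at 0.398 and 0.529 against 0.210 and 0.167, and was called lower only with no minimum (adjusted p = 0.0415). Dkk2 was at 0.0782 and 0.0840 against 0.188 and 0.274, and Sfrp4 overlapped at 0.605 and 0.819 against 0.951 and 0.416. Dkk4 and Sostdc1 had a mean under 0.1. Sost, the osteocyte product sclerostin, was listed at 0 in every library.

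**Figure D3:**
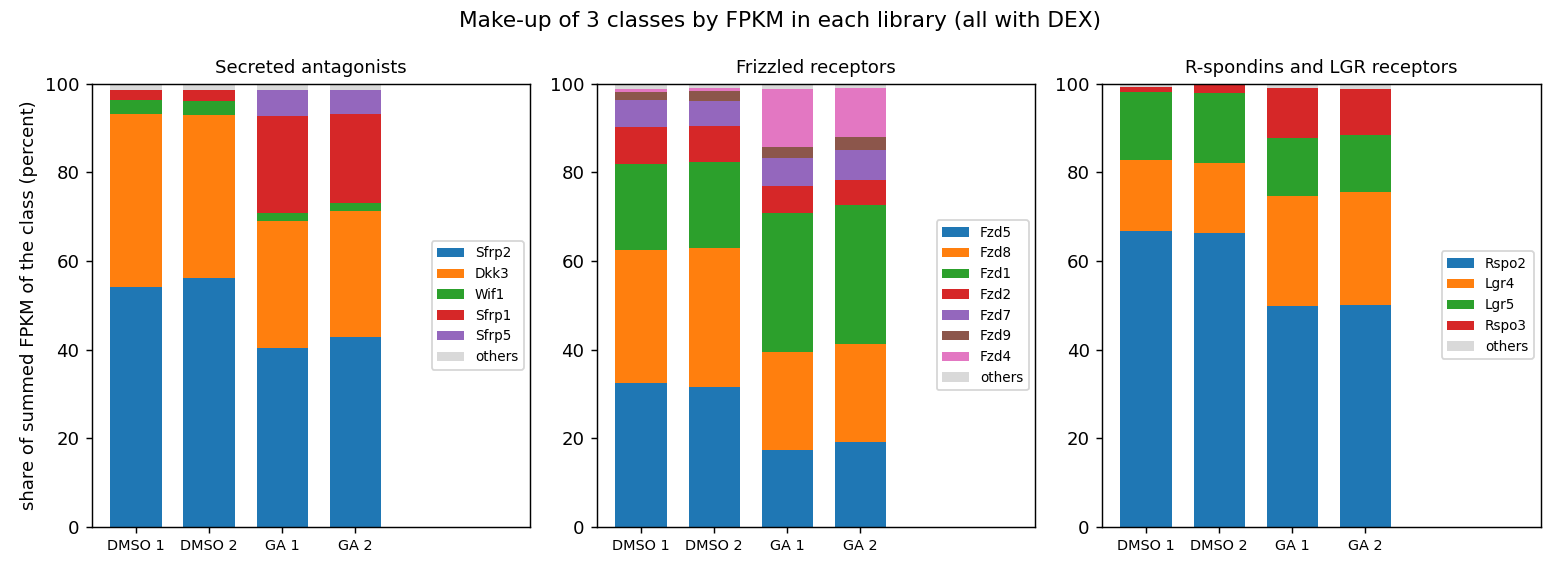
Share, as a percent, of the summed FPKM of 3 classes (secreted antagonists, Frizzled receptors, R-spondins and LGR receptors) taken by their genes in each of the 4 libraries, with genes that stay small grouped as others. Sfrp1 and Sfrp5 widen at the expense of Sfrp2 and Dkk3 among the antagonists, and Fzd1 and Fzd4 at that of Fzd5 and Fzd8 among the Frizzled receptors.

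The intracellular and membrane brakes of the pathway were mixed. All 6 genes were tested, 1 rose, 2 fell and 3 were not called. Rnf43, the ligase that removes Frizzled from the cell surface, fell 2.05-fold, from 7.09 and 7.18 to 3.25 and 3.70 (log2 change -0.87, SE 0.08, adjusted p = 1.13e-04). Axin2, a scaffold of the β-catenin destruction complex whose transcription is widely used as a readout of β-catenin activity, fell 1.45-fold, from 13.4 and 13.5 to 8.68 and 9.92 (log2 change -0.50, SE 0.08, adjusted p = 0.00116). Nkd1, which binds Dishevelled and is itself known as a β-catenin target in other tissues, rose 2.45-fold, from 4.75 and 4.84 to 11.2 and 12.3 (log2 change 1.14, SE 0.07, adjusted p = 1.53e-05). The called genes of this class, known as feedback targets, thus moved in opposite directions, Axin2 and Rnf43 down and Nkd1 up, in both libraries of each group. Znrf3, of the same class, was not called.

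The other member of each of the 3 gene pairs showed no such change. Axin1 was at 21.1 and 21 against 21.8 and 22.8 (adjusted p = 0.284), Znrf3 at 2.69 and 2.38 against 2.47 and 2.43 (adjusted p = 0.778), and Nkd2 at 15.0 and 16.5 against 14.3 and 16.9 (adjusted p = 0.879). Nkd2 was called lower after the shift to a common median (adjusted p = 0.0432). A difference within a pair was not tested.

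Of β-catenin and the TCF/LEF factors, 4 of 5 genes were tested, 2 rose and 2 fell, beside 46.3% and 11.9% of all genes. Ctnnb1, which encodes β-catenin, was by far the most abundant member, at 1174 and 1200 in DMSO and 999 and 1054 in GA, 1.16-fold lower (log2 change -0.21, SE 0.07, adjusted p = 0.0316). The call was lost without DMSO library 1 (adjusted p = 0.195) or DMSO library 2 (adjusted p = 0.256). This is the level of its mRNA, while the pathway acts on the stability of the protein, which was not measured. Tcf7, which encodes TCF1, fell 1.67-fold, from 24.2 and 25.5 to 13.1 and 16.6 (log2 change -0.71, SE 0.10, adjusted p = 8.46e-04).

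Tcf7l1, which encodes TCF3, known mainly as a repressor, rose 1.77-fold, from 19.4 and 21 to 34.6 and 36.8 (log2 change 0.79, SE 0.06, adjusted p = 4.81e-05). Tcf7l2, which encodes TCF4, rose 1.98-fold, from 4.77 and 4.59 to 9.20 and 9.34 (log2 change 0.85, SE 0.07, adjusted p = 4.81e-05). Tcf7 was thus above Tcf7l1 in both DMSO libraries and below it in both GA libraries. Lef1 was nearly absent from the control cells, at 0.0264 and 0.0319, and stood at 1.67 and 1.32 with GA, and its mean over all libraries stayed under the minimum. At the smallest gene length that gave whole reads, these values stood for 2 and 2 reads against 88 and 79, a ratio of 51.3 with a counting interval of 19.7 to 191. With no minimum on FPKM, Lef1 was called higher (log2 change 1.27, adjusted p = 0.00255).

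The 7 classes can be set side by side, against a median change of 0.19 over all genes tested. The median was highest for the co-receptors and ROR receptors, at 0.51 with 3 higher and 1 lower, followed by the Frizzled receptors at 0.32. β-Catenin and the TCF/LEF factors had a median of 0.29 and the R-spondins and LGR receptors of 0.23. Ligases, axins and naked proteins stood at -0.03, the ligands at -0.13 and the secreted antagonists at -0.55. On the scale with a common median the median of all genes was -0.04, and the medians of these classes, in the same order, were 0.28, 0.09, 0.06, 0.0027, -0.26, -0.36 and -0.79. The counts, higher and lower, beside 19.5% and 27.9% of all genes, were 1 and 5 of 7 ligands, 2 and 3 of 8 Frizzled receptors, 3 and 1 of 4 co-receptors and RORs, 2 and 2 of 4 R-spondins and LGRs, and 2 and 4 of 6 antagonists. They were 1 and 3 of 6 ligases, axins and naked proteins, and 2 and 2 of 4 genes in the β-catenin class. These are counts of 4 to 8 genes, and a difference between classes was not tested. The higher genes include Rspo3 and Sfrp5, which reached the minimum only through the GA libraries.

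**Figure D4:**
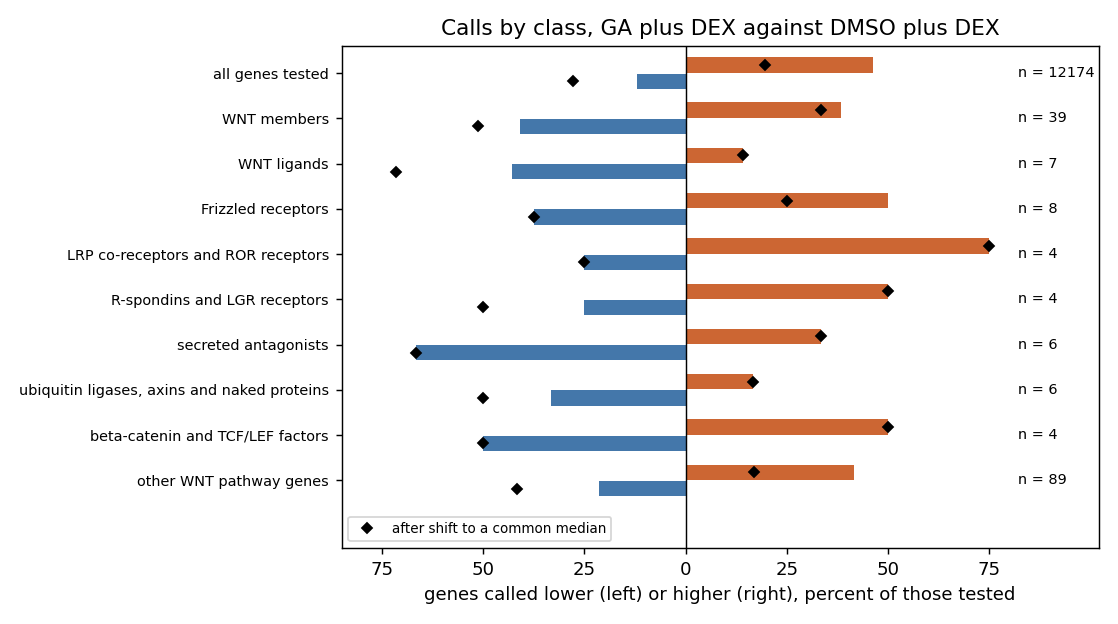
Percent of the genes tested that were called lower (left) or higher (right) in GA plus DEX, for all genes, the WNT members, their 7 classes and the other WNT pathway genes, with the number tested at the right. Diamonds give the same after the shift to a common median, where all genes move from 46.3% to 19.5% higher and from 11.9% to 27.9% lower.

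As deposited, summed FPKM was higher with GA for the receptors and lower for the ligands and antagonists. Frizzled receptors summed to 169.6 and 177 in DMSO and 193 and 205 in GA (173 ± 4.97 and 199 ± 7.94, mean ± SD, n = 2), and the co-receptors and RORs to 88.9 ± 0.317 and 103 ± 4.25. Antagonists summed to 422 and 449 against 332 and 352 (435 ± 18.8 and 342 ± 14.4), and ligands to 59.9 and 62.8 against 53.9 and 58.8. The groups did not overlap in these sums, but 2 libraries against 2 cannot reach a two-sided exact permutation p below 0.333. The direction of the receptor sums depended on the scaling. With the libraries scaled to a common median, which was chosen after seeing the data, the GA to DMSO ratio went from 1.15 to 0.979 for the Frizzled receptors and from 1.16 to 0.987 for the co-receptors and RORs, with overlapping groups, while the ligands stood at 0.782 and the antagonists at 0.669. Antagonist FPKM was 7.04 and 7.15 times ligand FPKM in DMSO and 6.16 and 5.99 times in GA. As deposited, the R-spondin class summed to 57.5 ± 1.31 and 59.3 ± 1.08, with DMSO library 2 and GA library 1 both at 58.5. The ligase class summed to 64.8 ± 0.886 and 64.8 ± 4.47. With a common median, the GA to DMSO ratios of these classes went from 1.03 to 0.878 and from 1.00 to 0.852. On that scale both GA libraries lay below both DMSO libraries. Ctnnb1 made up 96.0% and 94.4% of the β-catenin class, which summed to 1222 and 1251 against 1058 and 1118.

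Other genes of the pathway were counted from a list of 99, of which 89 were tested, 37 rose (41.6%) and 19 fell (21.3%), where 46.3% and 11.9% of all genes tested did, with a median change of 0.13 beside 0.19 over all genes. On the common-median scale 15 were called higher (16.9%, all genes 19.5%) and 37 lower (41.6%, all genes 27.9%), so the balance of this list turned with the scaling. Among 16 genes of secretion and extracellular control, 4 rose (25%) and 5 fell (31.2%), and 3 rose (18.8%) and 11 fell (68.8%) after the shift, beside the shares of all genes just given. Cthrc1, a secreted protein known to bind WNT5A and its receptors, fell from 276 and 259 to 89.98 and 91.5 (2.95-fold, adjusted p = 7.98e-07), and Kremen1, a receptor for Dickkopf proteins, from 81.9 and 81.1 to 36.9 and 40.7 (2.10-fold, adjusted p = 9.37e-06). Apcdd1, a membrane inhibitor of WNT signaling, rose 2.40-fold, from 24.9 and 25.2 to 59.1 and 60.9 (adjusted p = 1.83e-06). The proteins that make WNT ready for release differed. Porcn, the acyltransferase that lipid-modifies WNT proteins, rose from 124 and 119 to 206 and 216 (1.74-fold, adjusted p = 2.57e-05), and Wls, their carrier to the surface, was lower at 145 and 140.1 against 118 and 116 (adjusted p = 0.00296).

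In the cytoplasm, 17 of 35 genes rose (48.6%) and 3 fell (8.57%), and 8 rose (22.9%) and 11 fell (31.4%) after the shift, shares near those of all genes on either scale. Gsk3b, a kinase that marks β-catenin for destruction, rose 1.57-fold (26.7 and 27.9 against 42.1 and 43.4, adjusted p = 7.57e-05), and Plcb1 and Daam1, of the branches without β-catenin, rose 2.52-fold and 2.03-fold. Dvl3, 1 of the Dishevelled relays, fell 1.32-fold. Of 20 nuclear cofactors, 13 rose (65%) and 1 fell (5%) as deposited, and 4 rose (20%) and 3 fell (15%) after the shift, when 19.5% and 27.9% of all genes did. Tle1, a corepressor of TCF factors, rose 1.88-fold, from 11 and 11.1 to 19.6 and 22.0 (adjusted p = 5.09e-05), and the coactivator Bcl9l rose from 26.1 and 27.5 to 36.4 and 40.7 (adjusted p = 6.77e-04). Abundant Ctbp1 was at 140.2 and 146 against 143 and 147 (adjusted p = 0.778), and was called lower after the shift (adjusted p = 0.0124).

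Genes known as β-catenin targets in other tissues fell in 10 of 18 cases tested (55.6%, all genes 11.9%), with 3 rises and a median of -0.20. After the shift 12 were called lower (66.7%, all genes 27.9%). This list was chosen with earlier results of these data known, and its shares depend on that choice. It leaves out members described above as targets, of which Nkd1 rose and Axin2 and Rnf43 fell. Ccn4 fell from 119.5 and 118.5 to 53.2 and 57.7 (2.15-fold, adjusted p = 6.00e-06) and Ccnd1, the cell cycle gene cyclin D1, from 207 and 202 to 119 and 125 (1.68-fold, adjusted p = 3.46e-05). Tnfrsf11b, which encodes osteoprotegerin, fell 1.87-fold and Bambi 1.89-fold. Myc was lower at 32.7 and 34.1 against 27.6 and 28.8 (adjusted p = 0.0091). Snai2, Ccn5 and Jun were called higher as deposited, with changes of 0.26, 0.22 and 0.21, and not after the shift. Many of these genes are also regulated by other pathways, and several are expressed by osteoblasts, whose markers fell in the same libraries. The part of either in these changes was not tested.

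Exons of 11 members overlap another annotated gene, for 10 of them on the opposite strand only, and the strand setting of the counting is not given in the sources used here. Reads of such pairs cannot be told apart without strand. Where the partner was in the table it was listed below FPKM 1 in every library, the highest being Ulk4 beside Ctnnb1, at 0.655 to 0.797.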

How the data were processed

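RNA of mBMSCs in GA plus DEX or DMSO plus DEX (2 libraries each) was sequenced, and the authors deposited 1 table of FPKM values with a column per library, each matched to its sample by title. Per the submitters' notes, the tools were HTSeq 0.6.1, TopHat2 2.0.12 and Bowtie2 2.2.3, and the build was mm9, with no role given for any. Annotation, gene lengths and strandedness were not given in the sources used here. Of 47069 identifiers, 46488 had a symbol, and 8425 carry numbers above 100000. GENCODE M21 gave the gene types, and 1 non-coding symbol with a family prefix was left out.

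Reads per library came from the FPKM step of genes with 1 read, and whole reads (within 0.0001 of a read) from the smallest gene length that gave them in all libraries, which recovered 98.4% to 98.5% of the depth. Genes whose FPKM averaged at least 1 (12174) were compared as log2(FPKM + 1) by limma (version 3.58.1, R 4.3.3, eBayes with trend, two-sided, Benjamini-Hochberg), with 2 residual and 5.38 prior degrees of freedom. On simulated data for this comparison (11885 genes), 48% of the genes changed 1.25-fold and 98% of those changed 1.5-fold were called. So were 100% at 2-fold and 4-fold, and 0.24% of the unchanged ones. These rates describe the simulated data only. Whether they hold for the real libraries, where the calls depended on the scaling, or for members of low FPKM, was not tested. The libraries were normalized by FPKM alone, which is why a shift to a common median stands beside the counts. Other alternatives were other pseudocounts, minimums and variance models, quantile normalization, the study's thresholds (unadjusted p under 0.05, log2 fold change above 0.5 or below -0.5), leaving out each library, and a replicate block. Intervals cover counting error only.

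The members and gene lists were chosen with earlier results of these data known. Members with a mean FPKM of at least 1 could be named with all values, and those above 0.1 with their levels. Of the other pathway genes, up to 4 per direction with the largest change and 3 not called per list could be named. Myc and Wls were named outside this rule, as other genes of their lists fell more. RefSeq promoters (GRCm38.p6) were matched by gene. No coordinates of mm9 were used. Figures were drawn with matplotlib 3.10.9.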

Additional observations from a re-analysis of the deposited data

How the results depend on the processing

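Of 537 recomputed changes of single members, 476 kept their direction and call, 38 lost the call, 14 gained one and 9 changed sign. The same call was made in every alternative run for 19 members. The members called higher and lower, 15 and 16 as reported, were 15 and 16 with a pseudocount of 0.1 or 5, 17 and 13 with no minimum, 11 and 15 with a minimum of 5, 16 and 15 without the trend, 13 and 20 with a common median, 12 and 20 with quantile normalization, and 15 and 20 with voom on the recovered reads, an alternative chosen after seeing the data. The study's thresholds gave 12 and 8. Leaving out each library gave 14 to 16 higher and 12 to 15 lower. The sign changed only for members not called in either fit, namely Axin1 (-0.16 after the shift, -0.15 with quantile normalization, -0.13 with voom), Wnt16 (-0.0033 with quantile normalization) and, without 1 library, Wnt4 (-0.051 to 0.028), Nkd2 (-0.13 to 0.094) and Znrf3 (-0.098 to 0.030).

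The other pathway genes, 37 higher and 19 lower, were 15 and 37 after the shift, 13 and 36 with quantile normalization, 10 and 8 with the study's thresholds and 17 and 36 with voom. All genes, 5639 and 1454, were 2380 and 3392, 2394 and 3273, 2051 and 552, and 2931 and 3056 under the same 4 alternatives, and 4532 to 5173 and 1133 to 1428 without 1 library. Same-numbered libraries showed no shared deviation over genes (correlation of the deviations -0.025). With 2 libraries a group this cannot tell whether they came from matched cultures or mice. The replicate block gave 15 members higher and 13 lower, and 5528 and 1433 of all genes, with Wnt5b, Wnt9a and Ctnnb1 no longer called (adjusted p = 0.0643, 0.0518 and 0.0695). Scaling to a common median, chosen after seeing the data for the class sums, lowered every GA to DMSO ratio of a sum. The sums of the Frizzled receptors, the co-receptors and RORs, the R-spondins and LGRs, and the ligase class turned from above 1 to below it. Depth limits members below FPKM 1, and 2 libraries a group limit small changes.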
